A study of Sus scrofa with 8 samples.

Results

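HOX genes encode homeodomain transcription factors that stand in 4 clusters, HOXA to HOXD, and that give cells their position along the body axis. Each gene is numbered by its paralogue group, from 1 at the anterior end to 13 at the posterior end, and the order of the genes within a cluster follows the order in which they are used along the embryo. In the developing gut and its derivatives many of them are best known from the surrounding mesenchyme, while the pancreatic epithelium is marked by PDX1, a homeobox gene of the related ParaHox group. HOX proteins bind DNA together with the TALE homeodomain cofactors of the PBX, MEIS and PKNOX families, their transcription is set by retinoic acid and by the caudal factors CDX1, CDX2 and CDX4, and they are held silent by Polycomb complexes outside their domain.

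The members described here are the genes of the deposited gene table whose symbol, with the suffixes of isoform and extension rows removed, is HOXA, HOXB, HOXC or HOXD followed by a number. The rule used no measured value. It found 37 genes among 30282 genes, 17095 of which carry a symbol. HOXA gave 9 genes, among them HOXA2, HOXA3, HOXA5, HOXA7, HOXA9, HOXA10, HOXA11 and HOXA13. HOXB gave 10 genes, the groups 1 to 9 and 13, and HOXC gave 9 genes, the groups 4, 5, 6 and 8 to 13. HOXD gave 9 genes, in the groups 1, 3, 4 and 8 to 13. HOXA4 and HOXA6 were not matched by their symbol and were not analysed here. On the pig build Sscrofa11.1 the RefSeq annotation held 34 of the 37 genes, with HOXB at chr12:24784953-24950661, HOXC at chr5:19151096-19268267 and HOXD at chr15:81893997-81990026.

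The genes were counted by poly(A) RNA-seq in 8 libraries from porcine pancreatic ductal organoids (PPDO), which are 3-dimensional cultures grown in basement membrane extract from hand-picked pancreatic ducts of German Landrace pigs. The 4 lines were Em, from an embryo, EPN1 and EPN2, from early postnatal pigs, a stage that runs from birth to shortly after weaning, and LPN, from an adolescent pig after weaning. The study used wild-type pigs and pigs with an INS-eGFP reporter, and which line came from which is not given in the sources used here. Each line gave 1 library in complete medium (Control in the titles) and 1 in differentiation medium (Treated). Both media shared a basal medium, N2, B27 without vitamin A, A83-01, Y-27632, nicotinamide and N-acetylcysteine, and only complete medium added the niche factors WNT3a, R-spondin1 and noggin, the growth factors EGF and FGF10, prostaglandin E2 and gastrin. The treatment field of the labels names endocrine induction medium for all 8 libraries, so that the media were told apart by the titles. Em and LPN are 1 line each, and for these stages the stage and the line cannot be told apart. The paper describes these organoids as early passage, but the passage of each line is not given in the sources used here. In the paper's proteomics, passage was the main source of variance among PPDO. Differences between lines therefore cannot be told apart from differences in passage.

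Library totals ran from 40553593 to 47910657 counts. Levels are given as CPM, the counts of a gene relative to the library total, scaled by TMM, a normalization that corrects for a few very abundant genes. A gene was called detected above 3 counts in a library, the upper limit compatible with a count of 0, and this limit stood at 0.0618 to 0.0731 CPM. A gene was called expressed at 1 CPM or more. The 8 genes fixed as ductal markers, among them KRT7, KRT8, SOX9 and CFTR, were counted in every library. Their summed level was 5131 to 7405 CPM in complete medium and 1328 to 10196 CPM in differentiation medium, with the lowest value in EPN2.

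HOX genes were at or near 0 in these organoids. Of the 37 genes, 23 had no count in any of the 8 libraries, 14 had at least 1 count somewhere, and HOXC13 alone was above 3 counts in any library. For comparison, 80.7% of the 17095 genes with a symbol were above 3 counts in at least 1 library. All HOX genes together gave 308 counts among the 356553820 counts of the 8 libraries, which is 0.864 CPM. HOXC13, a gene best known from hair follicles and nails, made up 93.2% of them, and the other 36 genes shared 21 counts. This sum has a 95% Poisson interval of 13 to 32.1 counts and stands for 0.0589 CPM over all 36 genes. No gene but HOXC13 reached more than 2 counts in a library.

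**Figure D1:**
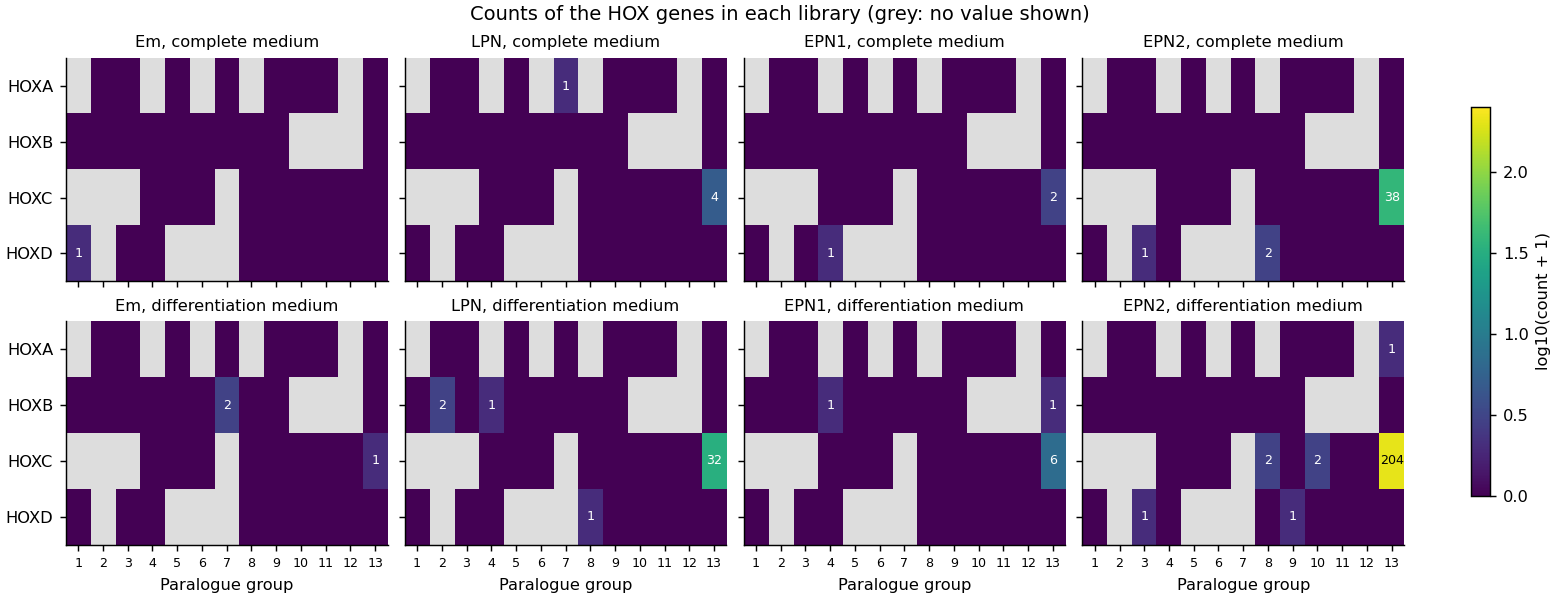
Counts of HOX genes in the 8 libraries, with complete medium in the upper row and differentiation medium in the lower row. Each panel shows the clusters against the paralogue group, the colour gives log10(count + 1), numbers are counts above 0, and grey marks positions with no value shown. HOXC13 in EPN2 stands out with 38 and 204 counts, and no other gene exceeds 2 counts.

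The clusters differed little once HOXC13 was set aside. HOXA gave 2 counts, 1 of HOXA7 in LPN in complete medium and 1 of HOXA13 in EPN2 in differentiation medium. That of HOXA7 lay in its extension row, outside the annotated gene body. HOXA2, HOXA3, HOXA5, HOXA9, HOXA10 and HOXA11 had none, so that the genes of this cluster used in hindbrain, limb and genital tract were not detectable at this depth.

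HOXB gave 7 counts. HOXB2 had 2 counts in LPN and HOXB7 had 2 in Em, both in differentiation medium. HOXB4, known for its role in blood stem cells, had 1 count each in LPN and EPN1 in differentiation medium. All counts of HOXB2 and HOXB4 lay in extension rows, outside the annotated gene bodies, and whether they come from these genes was not tested. HOXB13, a gene of the prostate and the hindgut, had 1 count in EPN1 in differentiation medium. HOXB1, HOXB3, HOXB5, HOXB6, HOXB8 and HOXB9 were at 0 in all 8 libraries.

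Apart from HOXC13, the HOXC cluster gave 4 counts, all in EPN2 in differentiation medium, where HOXC8 and HOXC10 had 2 counts each. HOXC4, HOXC5, HOXC6, HOXC9, HOXC11 and HOXC12 were at 0. HOXD gave 8 counts. HOXD8 had 2 counts in EPN2 in complete medium and 1 in LPN in differentiation medium. HOXD3 had 1 count in EPN2 in each medium, HOXD1 had 1 in Em in complete medium, HOXD4 had 1 in EPN1 in complete medium and HOXD9 had 1 in EPN2 in differentiation medium. The HOXD1 count and the HOXD3 count in differentiation medium lay in extension rows. HOXD10, HOXD11, HOXD12 and HOXD13, the group known from limb patterning, were at 0.

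Position along the cluster gave the same picture. The 8 anterior genes (paralogue groups 1 to 3) held 5 counts and the 13 central genes (groups 4 to 8) held 11. The 16 posterior genes (groups 9 to 13) held 292 counts, of which 5 remained without HOXC13. With intervals of 1.62 to 11.7 counts for the anterior genes, 5.49 to 19.7 for the central genes and 1.62 to 11.7 for the 15 posterior genes without HOXC13, the zones overlapped.

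By library, the HOX genes other than HOXC13 gave 1 count in Em, 1 in LPN, 1 in EPN1 and 3 in EPN2 in complete medium. In differentiation medium they gave 2 counts in Em, 4 in LPN, 2 in EPN1 and 7 in EPN2. The highest value in each medium was that of EPN2. The media overlapped, while within each of the 4 lines the sum was higher in differentiation medium. Over the 4 lines the sums were 6 counts in complete and 15 in differentiation medium. Since all of these genes lay under the limit that a count of 0 allows, no fold is given for any of them.

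HOXC13 (ENSSSCG00000000279, chr5:19151096-19159008) encodes a posterior homeodomain factor that switches on hair keratin genes. Its counts in complete medium were 0 in Em, 4 in LPN, 2 in EPN1 and 38 in EPN2. In differentiation medium they were 1 in Em, 32 in LPN, 6 in EPN1 and 204 in EPN2. It was detected in both media in LPN and EPN2, in differentiation medium only in EPN1, and in neither medium in Em. The EPN2 libraries held 84.3% of its counts.

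In CPM, HOXC13 was at 0 in Em (95% Poisson interval 0 to 0.0799), 0.0974 in LPN (0.0266 to 0.250), 0.0481 in EPN1 (0.00582 to 0.174) and 0.859 in EPN2 (0.608 to 1.18) in complete medium. In differentiation medium it was at 0.0206 in Em (0.000522 to 0.115), 0.668 in LPN (0.457 to 0.942), 0.136 in EPN1 (0.0498 to 0.295) and 4.76 in EPN2 (4.13 to 5.46). EPN2 was thus the highest line in both media, and its interval did not overlap that of any other line. In complete medium the intervals of Em, LPN and EPN1 overlapped. In differentiation medium LPN lay above EPN1 and Em, whose intervals overlapped. These intervals cover counting error only. EPN2 in differentiation medium was the 1 library of 8 in which any HOX gene was expressed at 1 CPM or more.

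**Figure D2:**
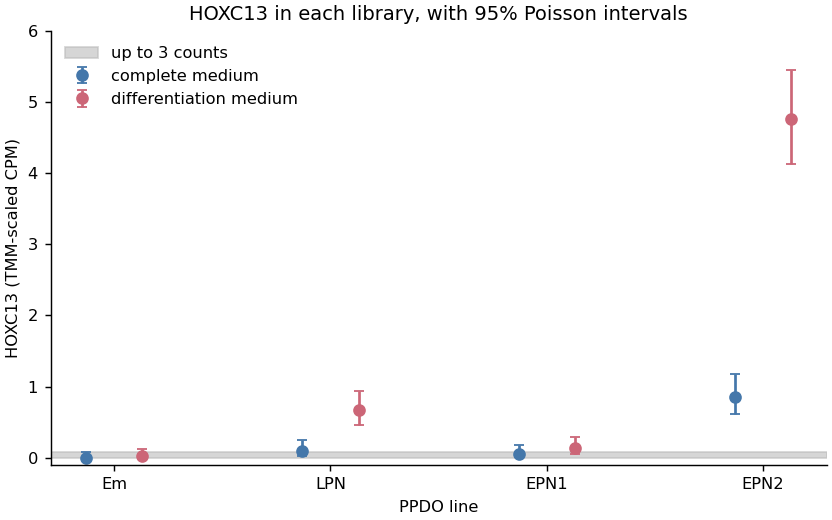
HOXC13 level in TMM-scaled CPM (linear axis) for each PPDO line, in complete medium (blue) and differentiation medium (red). Points are single libraries, bars are 95% Poisson intervals, and the grey band is the range up to 3 counts in the library with the highest such level, 0.0731 CPM. EPN2 lies above the other lines in both media, at 0.859 and 4.76 CPM.

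The comparison of the media asks whether withdrawal of the growth factors changed HOX expression. HOXC13 was higher in differentiation medium in 4 of 4 lines, with a mean of 0.251 ± 0.407 CPM in complete medium against 1.40 ± 2.26 CPM after differentiation (SD, n = 4). The groups overlapped. An exact permutation test that does not use the pairing gave p = 0.514 (two-sided, with 0.0286 the smallest value that 4 against 4 libraries can give). Within lines, an exact paired permutation test gave p = 0.125, which is the smallest value that 4 pairs can give. Em enters this test as a rise, though HOXC13 was detected there in neither medium. The ratio of differentiation to complete medium was 6.85 in LPN (95% counting interval 2.43 to 26.7), 5.55 in EPN2 (3.91 to 8.06) and 2.82 in EPN1 (0.505 to 28.6). In LPN and EPN2 the interval lay above 1, while that of EPN1 included it, and no ratio is given for Em because both of its libraries were at or under 3 counts.

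None of the 37 HOX genes passed the expression filter used before the tests across all genes. These tests called 6.97% of 14475 genes between media, of which 416 rose and 593 fell in differentiation medium, and 5.14% between lines. The HOX genes were therefore read from a second fit without the filter, which holds the 14 HOX genes with a count among 24670 genes. In the comparison of media that fit called 0 of the 14 HOX genes, against 2.05% of all genes (edgeR's quasi-likelihood test, Benjamini-Hochberg adjusted p under 0.05), and 0 at an unadjusted p under 0.05. The 13 genes other than HOXC13 shared 21 counts over the 8 libraries, too few for a call. The comparison with the share over all genes therefore says nothing about them. HOXC13 had a log2 fold change of 2.45 with a SE of 1.63 and an adjusted p of 0.448, and DESeq2 gave 2.50 with an adjusted p of 0.283. Because EPN2 was the highest line in both media, leaving out 1 of its libraries moved this fold, to 0.11 without EPN2 in differentiation medium and to 4.80 without EPN2 in complete medium. Without both EPN2 libraries the mean level was 0.0485 ± 0.0487 CPM in complete medium, which is under the level of 3 counts, and 0.275 ± 0.345 CPM after differentiation (SD, n = 3), a comparison chosen after the values were seen.

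Each line was cultured in both media, and with the line as a replicate block the spread between lines was taken out of the comparison. HOXC13 then passed the threshold, with a log2 fold change of 2.36, a SE of 0.48 and an adjusted p of 0.0253 in edgeR. That fit called 10.8% of 24670 genes. DESeq2 with the same block gave 2.41 with a SE of 0.65 and an adjusted p of 0.00129. Neither fit with the block was repeated without extension rows or with a library left out. Em had 0 and 1 HOXC13 counts, and Em and EPN1 had no gene body count in either medium. Whether the call rests on EPN2 or on the extension row was not tested.

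Between lines, with the medium as a term, the fit without the filter called 1 of the 14 HOX genes, HOXC13, against 4.71% of all genes. The other 13 again had too few counts for a call. For HOXC13 the lowest and the highest line differed by 7.72 on the log2 scale, with an adjusted p of 0.00681 by edgeR's quasi-likelihood test. Em, the lowest line, had 1 HOXC13 count in both libraries together, so that this fitted value depends on how a count near 0 is treated and is no measure of size. HOXC13 was called in each of the 8 fits that left out 1 library, with adjusted p from 0.0115 to 0.0458. It was not called when the extension rows were left out, although the spread was as large (7.92 on the log2 scale, adjusted p = 0.111).

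Most HOXC13 counts came from outside the annotated gene body. The deposited table splits HOXC13 into a row for the gene body and a row for an extension of 9 kb, added by the custom annotation used in counting. The gene body row held 80 counts and the extension row 207, which is 72.1% of the total. Gene body counts in complete medium were 4 in LPN and 8 in EPN2, and in differentiation medium they were 8 in LPN and 60 in EPN2. Em and EPN1 had no gene body count in either medium. Extension counts were 2 in EPN1 and 30 in EPN2 in complete medium, and 1 in Em, 24 in LPN, 6 in EPN1 and 144 in EPN2 in differentiation medium.

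In EPN2 both rows moved the same way. The ratio of differentiation to complete medium was 7.75 for its gene body row (95% counting interval 3.69 to 18.8) and 4.96 for its extension row (3.33 to 7.61). In LPN the gene body ratio was 1.71, with an interval of 0.459 to 7.77 that included 1, and the extension row rose from 0 to 24 counts. RefSeq places HOXC12 at 8165 bases from HOXC13, which is less than the 9 kb of the extension. Both rows of HOXC12 were at 0 in all 8 libraries. Whether reads of the extension row come from the HOXC13 transcript was not tested, and although the study lists a stranded library kit, whether the counting used strand is not given in the sources used here.

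**Figure D3:**
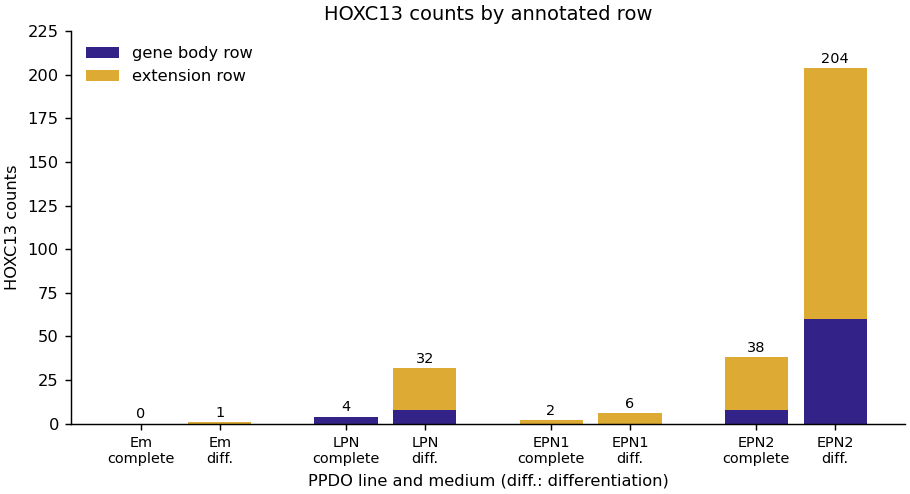
HOXC13 counts in each library, split into the gene body row (dark blue) and the 9 kb extension row (yellow), with the total above each bar. The axis starts at 0. The extension row makes up most of the counts in both EPN2 libraries, 30 of 38 and 144 of 204, and all counts in Em and EPN1.

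On each side of each cluster, at least 1 of the nearest 2 genes was above 3 counts in every library. These neighbours, the nearest protein-coding genes with a symbol and a row in the table, were taken from RefSeq after the HOX counts were known. Beside HOXA, the homeobox gene EVX1 was at 0 in all libraries, the adaptor gene SKAP2 had 204 to 794 counts and the metabolic gene HIBADH had 1168 to 4156. Beside HOXB, SKAP1 had 0 to 4 counts and TTLL6 1 to 4, whereas the autophagy receptor gene CALCOCO2, at 99346 bases from the cluster, had 4077 to 10145 counts. Beside HOXC, the DNA repair gene SMUG1 had 899 to 1685 counts and CALCOCO1 had 5149 to 11420. HOXC13 thus reached at most 4.76 CPM in a stretch in which CALCOCO1, 220693 bases away, was at 111 to 267 CPM.

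Beside HOXD, EVX2 had at most 1 count, at 9002 bases from the cluster, whereas LNPK had 642 to 1189 counts and the mitochondrial import gene MTX2 had 559 to 1173. EVX1 and EVX2 are the homeobox genes that flank the posterior ends of HOXA and HOXD, and neither exceeded 1 count in a library.

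**Figure D4:**
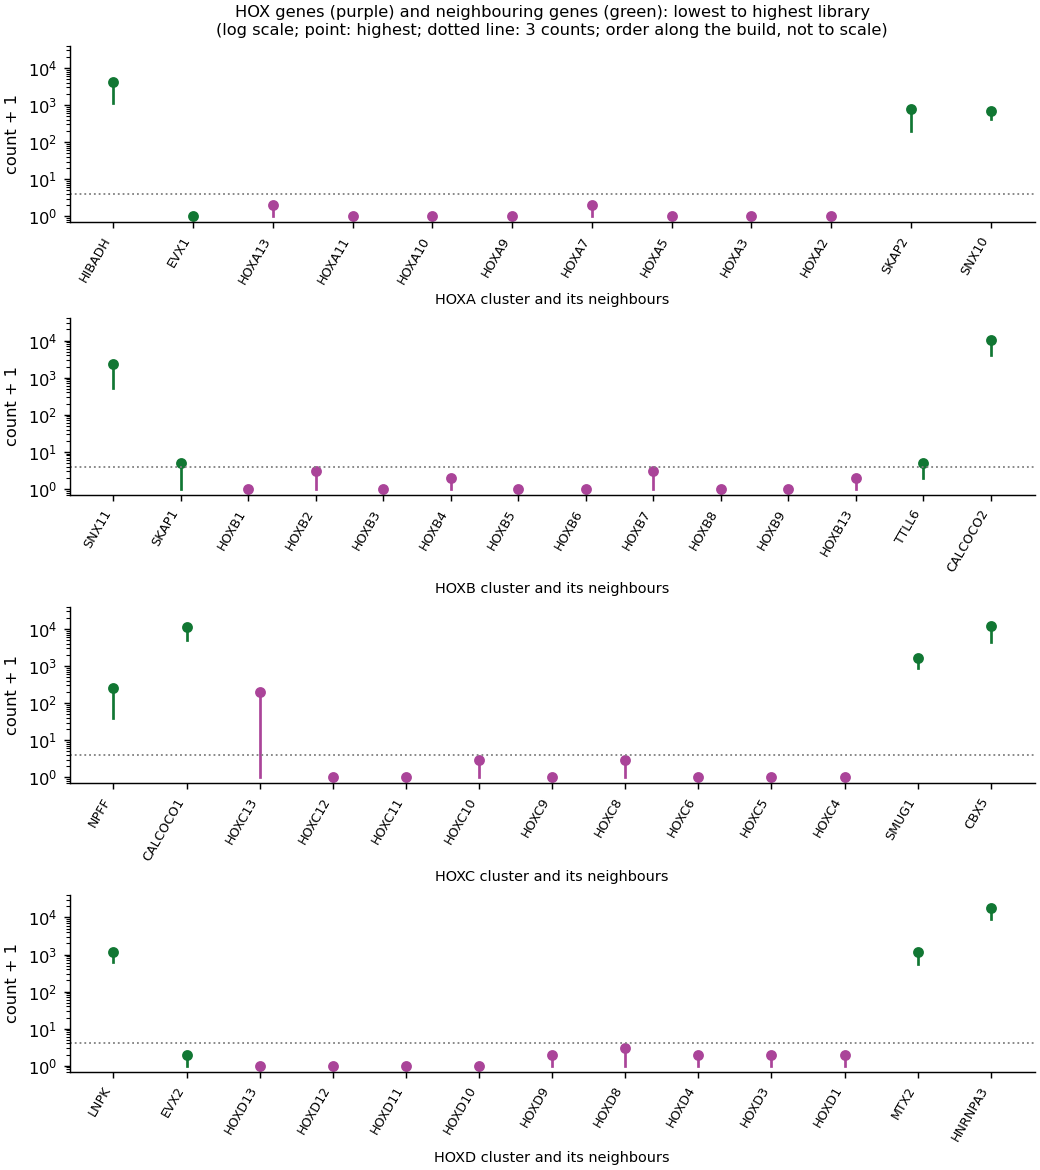
Lowest to highest count + 1 over the 8 libraries (log axis) for HOX genes of each cluster (purple) and the nearest 2 genes on each side (green), in their order along Sscrofa11.1 and not to scale. Points are the highest library and the dotted line marks 3 counts. HOXC13 is the 1 purple point above the line, while at least 1 of the 2 green genes on each side lies above it.

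Among genes of the same pathway, the TALE cofactors were counted in these libraries, unlike most HOX genes. All 9 cofactor genes passed the filter, and together they reached 332 to 418 CPM in complete medium and 499 to 589 CPM in the libraries of differentiation medium. Of these, 1 was called higher and 0 lower between media, beside 6.97% of all genes, and 1 was called between lines, beside 5.14%. Such counts from 9 genes set nothing apart from the share over all genes. The median log2 fold change of the 9 genes between media was 0.30, beside 0.01 over all 14475 genes.

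PBX3 was called between lines, with 0.98 on the log2 scale between the lowest and the highest line and an adjusted p of 0.0484. Its level was 30.7 CPM in Em, 19.6 in LPN, 38.2 in EPN1 and 18.5 in EPN2 in complete medium and 52.0, 24.6, 47.3 and 25.2 CPM in differentiation medium. Em and EPN1 lay above LPN and EPN2 in both media. The call was lost in every fit that left out 1 library (adjusted p 0.0658 to 0.185) and without the extension rows (0.0501). MEIS1 had a log2 fold change of 0.68 between media with an adjusted p of 0.0992, and PBX2 of -0.48 with 0.113. PBX2 was called when the EPN2 library of differentiation medium was left out (-0.62, adjusted p = 0.0465). MEIS2 and MEIS3 differed between lines by 1.63 and 3.60 on the log2 scale, with adjusted p of 0.0735 and 0.0629. With the line as a replicate block, which called 19.9% of the 14475 genes between media, MEIS1 (adjusted p = 0.0219) was higher and MEIS3 (0.0277) was lower in differentiation medium.

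Of the 9 genes listed as upstream regulators of HOX clusters, 8 had a row and 6 passed the filter. Between media 0 were called in either direction, beside 6.97% of all genes, with a median log2 fold change of 0.35 beside 0.01 over all genes. Between lines 2 of the 6 were called, beside 5.14%. CDX4 was at 0 in all 8 libraries, and CDX1 had at most 18 counts and did not pass the filter.

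CDX2, the caudal factor that specifies intestinal epithelium and drives posterior HOX genes in the embryo, differed between lines. Its counts in complete medium were 412 in Em, 226 in LPN, 532 in EPN1 and 5 in EPN2, and in differentiation medium 1064, 185, 505 and 2. EPN2, in which HOXC13 was highest, had the lowest CDX2 count in both media. The lines differed by 7.52 on the log2 scale with an adjusted p of 0.0266. The call was lost in 5 of the 8 fits that left out 1 library, those without LPN or EPN1 in either medium and without EPN2 in differentiation medium, with adjusted p up to 0.0952.

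RARG, a retinoic acid receptor, was at 46.6 CPM in Em, 121 in LPN, 64.1 in EPN1 and 125 in EPN2 in complete medium and at 61.4, 205, 127 and 241 CPM in differentiation medium. Em was the lowest and EPN2 the highest line in both media. The lines differed by 1.69 on the log2 scale with an adjusted p of 0.0286, a call that was kept in 1 of the 8 fits that left out 1 library, the one without EPN2 in complete medium, with adjusted p from 0.0356 to 0.103 over the 8. Between media RARG had a log2 fold change of 0.83 with an adjusted p of 0.291, and of 0.77 with 0.0203 with the replicate block. CYP26B1, which degrades retinoic acid, had a log2 fold change of 3.08 with a SE of 0.86 and an adjusted p of 0.0697. Leaving out the EPN2 library of differentiation medium gave 3.44, which was called (adjusted p = 0.0396), and its fold ran from 2.27 without Em in differentiation medium to 3.70 without EPN2 in complete medium. CYP26A1 had -1.31 with an adjusted p of 0.555, and ran from -2.10 without EPN2 in differentiation medium to -0.39 without EPN2 in complete medium, called in neither. RARA had -0.30 with 0.289.

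Genes of the chromatin complexes that keep HOX clusters silent or open were present in these organoids. Of 20 listed genes 16 had a row, and all 16 passed the filter. Between media 1 of the 16 was called higher and 0 lower, near the 6.97% called over all genes, and the median log2 fold change was 0.32 beside 0.01 over all genes. Between lines 0 were called, beside 5.14%. CBX2, a chromodomain subunit of Polycomb repressive complex 1, went from 13.9 ± 3.53 CPM in complete medium to 28.8 ± 6.77 CPM after differentiation (SD, n = 4), higher in all 4 lines. Its log2 fold change was 1.05 with a SE of 0.25 and an adjusted p of 0.0484. This call was kept in 1 of the 8 fits that left out 1 library, the one without EPN2 in differentiation medium, with adjusted p from 0.0321 to 0.126, and it was lost without the expression filter (0.0729).

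The other chromatin genes with the smallest adjusted p between media did not pass the threshold. PHC1, another Polycomb subunit, had a log2 fold change of 0.68 with an adjusted p of 0.0506. The insulator factor CTCF, which divides HOX clusters into domains, had 0.37 with 0.0517. SUZ12, a core subunit of Polycomb repressive complex 2, had -0.51 with 0.0589. RING1 had 0.38 with 0.0845 and WDR5, a subunit of the activating MLL complexes, 0.33 with 0.122. With the replicate block, CBX2 (adjusted p = 0.0236), PHC1 (0.0308), CTCF (0.0414) and RING1 (0.0494) were higher and SUZ12 (0.0275) and PCGF2 (0.0377) lower in differentiation medium.

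Of 11 listed neighbours and non-coding genes of the clusters, 5 had a row and 2 passed the filter. SKAP2, beside HOXA, rose in all 4 lines from 7.36 ± 1.73 to 14.8 ± 1.27 CPM (SD, n = 4), a log2 fold change of 1.01 with a SE of 0.22 and an adjusted p of 0.0376. The call was kept in 1 of the 8 fits that left out 1 library, the one without EPN2 in complete medium (adjusted p 0.0373 to 0.106), and was lost without the expression filter (0.0663). With the replicate block in edgeR, SKAP2 had an adjusted p of 0.0264. MTX2, beside HOXD, had a log2 fold change of 0.25 with an adjusted p of 0.474. HOTAIR, HOTTIP, HOTAIRM1, HOXA-AS2, HOXA-AS3 and HOXB-AS3 were not matched by symbol and were not analysed here.

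PDX1, the ParaHox gene that defines the pancreatic field, was counted in every library, in contrast to the HOX genes. Its level in complete medium was 46.2 CPM in Em, 55.2 in LPN, 73.9 in EPN1 and 12.9 in EPN2, and in differentiation medium 70.6, 37.4, 51.2 and 9.57 CPM. EPN2 was the lowest line in both media. The lines differed by 2.47 on the log2 scale with an adjusted p of 0.0457. The call was lost in 6 of the 8 fits that left out 1 library, all but those without Em in either medium, with adjusted p up to 0.134, and without the extension rows (0.0514). Between media PDX1 had a log2 fold change of -0.16 with an adjusted p of 0.900, and it was higher in differentiation medium in Em and lower in the other lines.

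**Figure D5:**
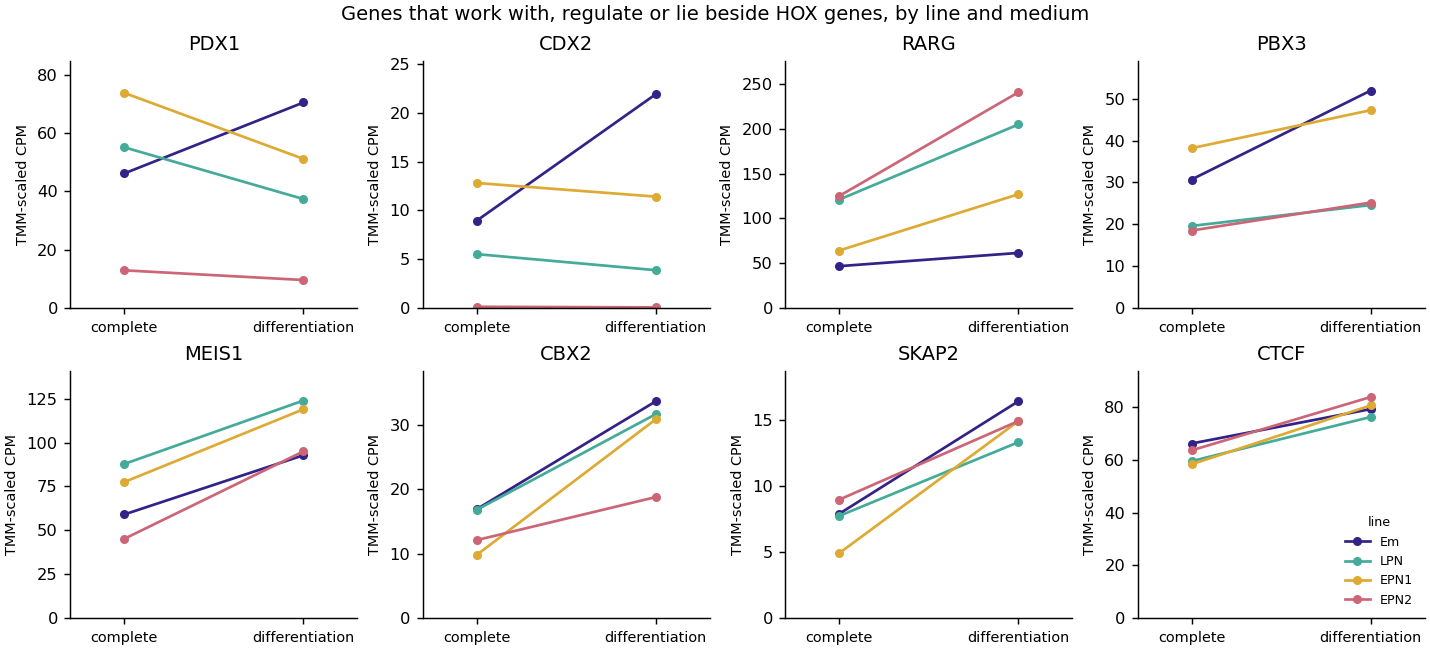
Level in TMM-scaled CPM (linear axes from 0) of 8 genes in complete and differentiation medium. They are the ParaHox gene PDX1 and genes that work with HOX genes, regulate them or lie beside them. Each line joins the 2 libraries of 1 PPDO line. CDX2 and PDX1 are lowest in EPN2 in both media, and RARG, PBX3, MEIS1, CBX2, SKAP2 and CTCF are higher in differentiation medium in all 4 lines.

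Mesenchymal cells, the usual site of HOX expression around the gut, were looked for by 10 stromal genes. TCF21 was at 0 in all libraries, DCN had at most 8 counts and LUM at most 35. VIM, which epithelial cells in culture also express, had 64 to 3080 counts, and PDGFRB had 1 to 224. COL3A1 had at most 2 counts in complete medium and 244 in Em, 8 in LPN, 268 in EPN1 and 2 in EPN2 in differentiation medium. The summed level of the stromal list was 22.4 to 73.0 CPM across the complete medium libraries and 2.45 to 51.1 CPM across the others, and 3 of the 10 genes passed the filter. The library with the highest HOXC13 level, EPN2 in differentiation medium, had the lowest stromal sum, 2.45 CPM, and also the lowest ductal sum, 1328 CPM. VIM made up 1.49 CPM of that stromal sum, and 66.7 of the 73.0 CPM in Em in complete medium. The ranking of stromal sums thus mostly reflects VIM and is no measure of mesenchymal cells. The Schwann cell marker CDH19 was at 0 in all libraries, and the 4 genes of that list summed to 0.0206 to 0.216 CPM. The endothelial list summed to 15.6 to 43.9 CPM, with at most 1 count of CDH5 but 341 to 731 counts of PECAM1 and 161 to 1641 of KDR. The immune list summed to 6.43 to 58.3 CPM, with at most 1 count of CD3E but 157 to 2042 counts of CD68 and up to 399 of LYZ. The intestinal list, CDX2 included, summed to 62.1 to 262 CPM in complete and to 103 to 542 CPM in differentiation medium. In bulk libraries, fewer cells of a type and less RNA per cell cannot be told apart, and the part of the lower ductal sum in the HOXC13 level of EPN2 was not tested.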

How the data were processed

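RNA was isolated by the authors with a PicoPure kit, selected by poly(A), sequenced on a NovaSeq X+ and quantified by salmon in an nf-core workflow, using a pig genome with a custom annotation. The deposited table holds estimated counts per gene and isoform or extension row, and the submitters' processing notes name the builds Sscrofa11.1 and GRCh38. Of the deposited values above 0, 78.7% are whole. Whether they were scaled by gene length could not be read from them, and levels are not compared between genes per length. The suffixes -iso and -ext were removed, rows of a gene were summed and the expected counts were rounded. Of 56060 rows, 73 were HOX rows, 36 of them extension rows, and extension rows held 2.58% of all counts. The 8 reporter rows (0.00142% of counts) were left out. Columns were assigned to lines by the table's header and to media by titles, and replicate numbers in the records were not tied to any column.

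Counts were tested in R 4.3.3 with edgeR 4.0.16 (TMM, factors 0.935 to 1.06; filterByExpr with a minimum count of 10; quasi-likelihood tests with Benjamini-Hochberg adjustment over all genes, threshold 0.05). The media were compared without a block, as the study's methods name none, and the lines with the medium as a term. DESeq2 1.42.0, other size factors, no filter, no extension rows, each library left out and the line as a block were alternatives. After the means of the media were removed, libraries of the same line correlated at 0.396 to 0.654 (4 pairs) and those of different lines at -0.492 to 0.272 (12 pairs), so that lines pair the libraries. Each line gave 1 culture per medium. The media comparison without a block sets the difference against a spread that includes that between these lines, and does not use the pairing. In the comparison of lines and with the line as a block, effects are set against line by medium deviations of single cultures. The fits with the filter were tested on simulated counts of genes that pass it, with no differences between lines in the media simulation. The fits without the filter and the media fits with the block, from which HOXC13 was read, were not tested in this way.

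HOX genes are named, those above 3 counts with values, and a few genes are not reported here. From each related list at most 6 genes with the smallest adjusted p and those at 0 are named, except that PCGF2 was added after its value was seen. No HOX gene passed the filter, and the choice to read them without it was made after seeing this. The members and lists were chosen with earlier results of these data known. Poisson and binomial intervals (95%) cover counting error only. RefSeq gave gene positions. Statistics and plots used Python 3.11.15, scipy 1.17.1, pandas 2.3.3, numpy 2.4.6 and matplotlib 3.10.9. No sequence is printed, as no sequence table was used here.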

Additional observations from a re-analysis of the deposited data

Results flagged for a closer look

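In each medium, 21 genes were searched for a library far from the other 3, by Dixon's criterion for 4 samples at the 95% level. This gave 42 groups, of which 4 were marked. For independent, normally distributed values about 1 in 20 would be marked by chance. The same 4 lines stand in both media, and the distribution of CPM was not tested. The number of marks is therefore not compared with that rate. HOXC13 was marked in EPN2 in complete medium at 0.859 CPM and in EPN2 in differentiation medium at 4.76 CPM. The cofactor PBX2 was marked in EPN1 in complete medium at 104 CPM, against 81.8 to 84.3 CPM in the other lines. The Polycomb gene PHC1 was marked in EPN1 in complete medium at 14.1 CPM. Whether the change of HOXC13 between media differs between lines was not tested, since each line gave 1 pair of libraries.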

How the results depend on the processing

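The number of HOX genes called between media was 0 under all 14 alternatives to the filtered fit, most of which keep the filter that removes these genes, and HOXC13 without the filter kept its direction in its 13 alternatives. With the line as a replicate block it passed the threshold (2.36, adjusted p = 0.0253 in edgeR, and 2.41, 0.00129 in DESeq2). These fits with the block were not repeated without extension rows or without 1 library. In the media fits without the block, leaving out 1 library gave log2 fold changes of 0.11 to 4.80. In the line fits it gave spreads of 7.59 to 8.31, and without extension rows the spread was 7.92 (0.111). Without the filter 1 HOX gene was called between lines. Of the 5 detected pairs of gene and library, 3 were left with a floor of 10 counts and 1 with 1 CPM.

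Over all genes, calls between media went from 1009 to 506 without the filter, 2884 with DESeq2, 2884 with the replicate block in edgeR and 5393 with it in DESeq2. They were 70 to 1199 without 1 library, lowest without EPN1 in differentiation medium. Calls between lines went from 744 to 1163 without the filter, 4565 with DESeq2's likelihood ratio test and 24 to 969 without 1 library. In the cofactor, upstream and chromatin lists, the 2 calls between media became 4 with DESeq2's size factors, 1 without the filter, 9 with DESeq2, 10 with the replicate block in edgeR, 15 with it in DESeq2 and 0 to 4 without 1 library. Their 3 calls between lines became 5 without the filter, 8 with the likelihood ratio test and 0 to 4 without 1 library. The cause of these shifts was not tested. The log2 fold change of CDX2 between media was -0.41 to 0.96 without 1 library, turning without Em in differentiation medium, and that of PDX1 was -0.52 to 0.18, turning to 0.17 without EPN1 in complete and to 0.18 without EPN2 in differentiation medium, none of them called. Depth limits the HOX genes other than HOXC13, of which none exceeded 2 counts in a library.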

Other observations

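The genes below were chosen after the HOXC13 values were seen and are given as values, with no test. FOXN1, a forkhead factor of hair follicles and the thymus that acts with HOXC13 in hair and nail, had 0 counts in Em, 71 in LPN, 19 in EPN1 and 109 in EPN2 in complete medium, and 6, 158, 22 and 360 in differentiation medium. The order of the lines was that of HOXC13 in both media, although the HOXC13 intervals of Em, LPN and EPN1 overlapped in complete medium. RARG had the same order of lines in both media. The share of all genes with this order was not counted, so the order sets no gene apart. The basal keratin gene KRT5 had 208, 178864, 12714 and 338506 counts in the same order of lines in complete medium and 3851, 230484, 63221 and 475550 in differentiation medium, again with EPN2 highest and Em lowest. KRT15, another basal keratin gene, did not follow that order, with 2833, 48975, 3090 and 8090 counts in complete and 2727, 130872, 37767 and 50318 in differentiation medium, and LPN was highest in both.

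Hair keratin genes, which HOXC13 is known to switch on, were low. KRT35 and KRT36 were at 0 in all 8 libraries, KRT31 had at most 7 counts and KRT32 at most 62, the last in LPN in differentiation medium. KRT82 had 0 counts in Em, 5 in LPN, 2 in EPN1 and 8 in EPN2 in complete medium. In differentiation medium it had 0, 15, 3 and 20, in both media the order of lines of HOXC13. KRT85 did not follow that order, with 2, 2, 0 and 5 counts in complete and 8, 0, 11 and 2 in differentiation medium. KRT2, an epidermal keratin, had 5 counts in EPN2 in complete medium and 64 in EPN2 in differentiation medium, with at most 1 count in the other lines. DSG4, a desmosomal cadherin of the hair shaft, had at most 6 counts. Of the ParaHox genes other than PDX1 and the CDX genes, GSX1 had at most 1 count and GSX2 at most 7.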
